A study of Mus musculus with 16 samples.

Results

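Metallothioneins are small, cysteine-rich proteins that bind zinc and copper, and zinc transporters move zinc across membranes. The genes described here are the metallothionein genes Mt1, Mt2, Mt3 and Mt4, the zinc exporter gene Slc30a1 (ZnT1) and the zinc importer gene Slc39a14 (ZIP14). They were chosen by name, and all 6 were found among the 18193 genes measured. Each is represented by 1 probe set, a group of array probes summarized to 1 value. It is the one with the highest mean over the 16 arrays among those annotated with exactly 1 symbol. These probe sets are 1422557_s_at (Mt1), 1428942_at (Mt2), 1420575_at (Mt3), 1450645_at (Mt4), 1436164_at (Slc30a1) and 1427035_at (Slc39a14). Other probe sets of Mt1, Slc30a1 and Slc39a14 serve as a check.

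Total RNA came from the ventricular myocardium of male mice, 14 weeks old, on a CD1 genetic background. The animals either lacked the adenosine 2A receptor (A2AR KO), a cell surface receptor for adenosine, or were wild-type (WT) littermates. They had been given 20 mg/kg of lipopolysaccharide (LPS) from E. coli into the peritoneum, or saline, and the time label is 24 h. This gives 4 groups of 4 arrays each: WT saline, WT LPS, A2AR KO saline and A2AR KO LPS. The knockouts came from a sub-colony of a published line bred from the same series as the wild-types, and the labels name no cell type to which the deletion is confined. The level of the deleted receptor's own transcript was not analysed here, so each array's genotype rests on its label. The labels do not tie arrays to individual mice, so p-values measure the spread between these samples. In whole ventricle, a change in the number of cells of a type and a change in RNA per cell cannot be told apart.

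In mammalian cells, free zinc is sensed by the metal-responsive transcription factor MTF-1 (gene Mtf1), which binds short metal response elements and activates Mt1, Mt2 and Slc30a1. Mt1 and Mt2 are made in most tissues and are also induced by glucocorticoids and by interleukin-6 acting through STAT3. Mt3 is known chiefly from the brain and Mt4 from stratified epithelia. ZIP14 brings zinc, and also iron and manganese, into cells, and in liver it is induced by interleukin-6 during the acute-phase response.

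All 7 cardiomyocyte markers lay above the array median in all 16 arrays, as did 3 of 4 atrial markers. These markers thus do not show that only ventricle was sampled. WT saline arrays 1 and 4 had mean levels of 5.78 and 7.49 for 7 skeletal muscle markers, against 3.57 to 3.79 in the other 14 arrays. WT LPS array 4 stood apart from the other WT LPS arrays. Among 632 genes more than 2-fold higher after LPS in knockout hearts, it was the lowest of the 4 WT LPS arrays for 65.3%, and its median log2 change over those genes was 0.89 against 1.44 to 1.67 in the other 3 arrays. Among 549 genes more than 2-fold higher after LPS in WT hearts, knockout LPS array 4 was the lowest of its group for 49.4% (median change 1.43 against 1.73 to 1.83), and knockout LPS array 2 for 32.6%. Limma's array weights were 0.217 for WT LPS array 4, 0.285 for knockout LPS array 2 and 0.678 to 1.27 for the other LPS arrays. Values for the genes with an LPS rise are also given without WT LPS array 4.

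LPS raised Mt1, Mt2 and Slc39a14 in both genotypes, and Mt3, Mt4 and Slc30a1 were not called. In limma (a linear model with 1 mean per group over all 16 arrays, called at an adjusted p under 0.05 over all genes), 3 of the 6 genes were higher after LPS and 0 lower in WT hearts, where 9.28% of all genes were called higher and 11.6% lower. The same 3 were higher and 0 lower in knockout hearts, where 11.4% of all genes were called higher and 14.7% lower. Their LPS and saline arrays did not overlap in either genotype, which held for 10.9% of all genes in the higher direction in WT hearts and 12.3% in knockout hearts. The median log2 change of the 6 genes was 1.09 in WT and 1.26 in knockout hearts, beside -0.00 and -0.02 over all genes.

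**Figure D1:**
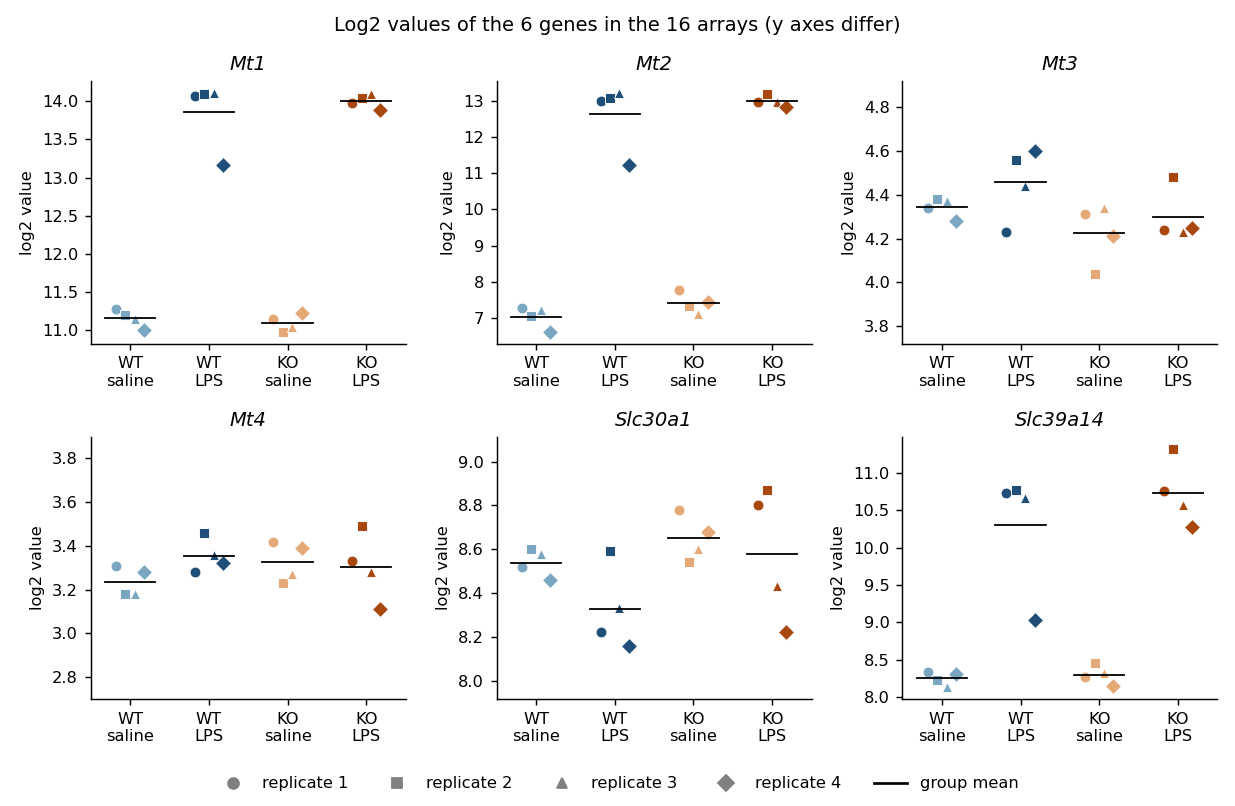
Log2 value of each of the 6 genes (y axis, scale differs by panel) in the 4 arrays of each group (x axis), with marker shape for replicate number and a black line for the group mean. LPS and saline arrays are separate for Mt1, Mt2 and Slc39a14, and WT LPS replicate 4 is the lowest LPS array of all 8 for each of these 3 genes.

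Mt2 had the largest rise of the 6 genes. Its log2 values in the WT saline arrays were 7.26, 7.05, 7.21 and 6.62, and in the knockout saline arrays 7.78, 7.34, 7.12 and 7.43. After LPS they were 13.00, 13.09, 13.22 and 11.22 in WT hearts and 12.97, 13.20, 12.98 and 12.82 in knockout hearts. Every LPS array thus lay above every saline array, and WT LPS array 4 lay below the other 7 LPS arrays. The log2 rise was 5.60 ± 0.32 (limma standard error, n = 4 against 4, adjusted p = 2.46e-09) in WT hearts and 5.57 ± 0.32 (adjusted p = 2.46e-09) in knockout hearts, or 48.5-fold and 47.6-fold. Ranked by rise among the 18193 genes, Mt2 was number 8 in WT and number 10 in knockout hearts. Without WT LPS array 4 the WT rise was 6.07 ± 0.16.

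Mt1, whose gene lies next to Mt2, was already high after saline on its main probe set and rose further. The WT saline arrays read 11.28, 11.20, 11.15 and 11.00 and the knockout saline arrays 11.14, 10.98, 11.04 and 11.22. After LPS the values were 14.07, 14.09, 14.11 and 13.17 in WT hearts and 13.98, 14.04, 14.09 and 13.89 in knockout hearts. Apart from WT LPS array 4, the LPS arrays spanned a narrow range near the top of the scale. In the LPS arrays, Mt1 lay 0.21 to 1.32 below the highest value on its array, and 0.21 to 0.50 below it without WT LPS array 4. How far the upper end of the scale limits the rise was not tested. The log2 rise was 2.70 ± 0.15 (adjusted p = 2.54e-09) in WT and 2.90 ± 0.15 (adjusted p = 1.12e-09) in knockout hearts, and the WT rise was 2.93 ± 0.08 without WT LPS array 4.

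A second Mt1 probe set, 1451612_at, with values near the array medians after saline, gave the same direction. It read 5.09, 5.07, 4.81 and 4.75 in the WT saline arrays and 7.45, 7.54, 7.50 and 5.46 in the WT LPS arrays. Its knockout values were 5.36, 5.13, 4.74 and 4.78 after saline and 7.36, 7.93, 7.38 and 7.01 after LPS. WT LPS array 4 was again the low one, only just above the saline arrays. The log2 rise by this probe set was 2.06 ± 0.35 in WT and 2.42 ± 0.35 in knockout hearts (adjusted p = 0.000594 and 0.000110 over all probe sets), and the WT rise was 2.57 ± 0.19 without WT LPS array 4.

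Mt3 and Mt4 belong to the same cluster on mouse chromosome 8, in the order Mt4, Mt3, Mt2, Mt1, and both lay below the array median in all 16 arrays. Mt3, the brain-enriched member, ranged from 4.28 to 4.38 in WT saline, 4.23 to 4.60 in WT LPS, 4.04 to 4.34 in knockout saline and 4.23 to 4.48 in knockout LPS arrays. Its log2 change with LPS was 0.12 ± 0.09 (adjusted p = 0.466) in WT and 0.07 ± 0.09 (adjusted p = 0.633) in knockout hearts. The 95% intervals ran from -0.08 to 0.32 and from -0.13 to 0.28. Mt4, the epithelial member, ranged from 3.18 to 3.31, 3.28 to 3.46, 3.23 to 3.42 and 3.11 to 3.49 in the same order of groups. Its log2 change was 0.12 ± 0.08 (adjusted p = 0.335) in WT and -0.02 ± 0.08 (adjusted p = 0.859) in knockout hearts, with 95% intervals from -0.04 to 0.28 and from -0.18 to 0.14. For both genes the groups overlapped, and at levels this low a change in transcript may not be visible on the array. The markers of neurons and glia (4 measured) had mean levels of 4.05 to 4.36 over the 16 arrays, and those of keratinocytes (5 measured) 4.17 to 4.57.

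The RefSeq promoters of Mt1, Mt2, Mt3 and Slc30a1 are shown because Mt1 and Mt2 rose steeply and the others were not called. That of Mt4, also not called, is not printed. In the 250 bases used here it held 1 of the cores marked below, as did that of Mt1. RefSeq's table (build GRCm38.p6) matched 5 of the 6 genes, Slc39a14 being the exception. Each line below gives the 250 bases before the annotated start, 5′ to 3′ on the coding strand, for Mt1 (chr8:94178839-94179088, plus strand), Mt2 (chr8:94172368-94172617, plus strand), Mt3 (chr8:94152357-94152606, plus strand) and the exporter gene Slc30a1 (chr1:191906531-191906780, plus strand). Capitals mark the core of the metal response element, searched as TGCACNC or TGCGCNC on both strands.
Mt1: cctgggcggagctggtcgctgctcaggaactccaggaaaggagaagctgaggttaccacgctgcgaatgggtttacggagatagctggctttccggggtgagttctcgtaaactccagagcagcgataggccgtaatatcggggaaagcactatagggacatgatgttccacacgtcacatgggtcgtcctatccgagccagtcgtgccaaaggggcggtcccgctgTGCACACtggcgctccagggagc
Mt2: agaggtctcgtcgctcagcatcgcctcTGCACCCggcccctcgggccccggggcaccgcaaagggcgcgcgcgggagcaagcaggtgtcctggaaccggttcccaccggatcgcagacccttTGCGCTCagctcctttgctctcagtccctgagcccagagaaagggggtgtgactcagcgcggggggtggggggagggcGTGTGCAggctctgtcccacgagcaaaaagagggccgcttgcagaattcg
Mt3: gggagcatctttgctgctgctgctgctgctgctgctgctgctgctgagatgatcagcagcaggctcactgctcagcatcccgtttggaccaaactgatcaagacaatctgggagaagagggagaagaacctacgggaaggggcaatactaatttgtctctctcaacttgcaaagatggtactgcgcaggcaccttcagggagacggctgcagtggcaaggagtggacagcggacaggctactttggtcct
Slc30a1: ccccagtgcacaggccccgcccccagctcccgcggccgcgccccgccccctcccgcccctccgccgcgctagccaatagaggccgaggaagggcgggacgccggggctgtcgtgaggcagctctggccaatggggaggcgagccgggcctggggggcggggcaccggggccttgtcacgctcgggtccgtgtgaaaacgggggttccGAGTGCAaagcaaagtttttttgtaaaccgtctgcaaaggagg

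In those 250 bases the core occurred 3 times in Mt2, 1 time in Mt1, 1 time in Slc30a1, 1 time in Mt4 and 0 times in Mt3. Of 32851 promoters of the same length, 21.4% held at least 1 match and 1.26% held 3 or more. In Mt1 the match lay 23 to 17 bases before the annotated start, and 2 more began at bases 3 and 21 of the transcript as annotated. In Mt2 the matches began 223, 128 and 50 bases before the start, and 1 more lay within the transcript's first bases, as did 1 each in Mt3 and Slc30a1. Counted over 300 bases, the matches were thus 4 in Mt2, 3 in Mt1, 2 in Slc30a1 and 1 each in Mt3 and Mt4, and 1.97% of promoters held 3 or more. The antioxidant response element, searched as TGACNNNGC, matched 1 time each in Mt2 and Slc30a1, and 10.2% of promoters held it. No match was found in the 5 promoters for a STAT site (TTCNNNGAA) or an E-box (CACGTG), which 7.02% and 6.02% of promoters held. None of the matches overlapped another, and a match describes letters, not binding. The counts hold only for the annotated start used for each gene. Other possible starts were not searched, so a lower count does not show that a gene has fewer elements.

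Genes on either side of the cluster moved less than Mt1 and Mt2. The nearest measured protein-coding genes beside Mt4 were Bbs2, Ogfod1 and Nudt21, and those beside Mt1 were Nup93, Slc12a3 and Herpud1, taken by gene order after the other gene lists had been set. Over all genes, 9.28% in WT and 11.4% in knockout hearts were called higher after LPS, and 11.6% and 14.7% lower. Of the 6 neighbours, 1 was called after LPS in each genotype. That was Nup93, which encodes a nuclear pore protein and rose by 0.54 ± 0.13 (adjusted p = 0.00660) in WT and by 0.69 ± 0.13 (adjusted p = 0.000924) in knockout hearts. The other 5 had log2 changes of -0.06 to 0.29 in WT and -0.43 to 0.26 in knockout hearts. Nudt21 was called in WT hearts with array weights and without WT LPS array 4 or knockout LPS array 2. Herpud1 was called in knockout hearts without knockout LPS array 4. With any 1 array left out, these changes reached at most 0.38 for Nudt21 and at the lowest -0.64 for Herpud1.

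Slc39a14, the importer ZIP14, rose in every LPS array but by unequal amounts. Its log2 values were 8.33, 8.23, 8.13 and 8.30 in WT saline arrays and 8.26, 8.45, 8.32 and 8.14 in knockout saline arrays. After LPS they were 10.74, 10.78, 10.67 and 9.03 in WT and 10.76, 11.33, 10.57 and 10.28 in knockout hearts. WT LPS array 4 was closer to the saline arrays than to the other WT LPS arrays, and knockout LPS array 2 was the highest of all 16. The log2 rise was 2.06 ± 0.30 (4.17-fold, adjusted p = 0.000101) in WT and 2.44 ± 0.30 (5.44-fold, adjusted p = 1.54e-05) in knockout hearts. It was 2.48 ± 0.17 in WT hearts without WT LPS array 4, and 2.25 ± 0.30 and 2.60 ± 0.32 in knockout hearts without knockout LPS array 2 or 4. Leaving out either of those knockout arrays put the knockout rise of Mt1 at 2.89 or 2.94 and that of Mt2 at 5.50 or 5.63.

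The other 3 Slc39a14 probe sets were also called higher in both genotypes. Their WT log2 rises were 1.69 ± 0.22, 2.64 ± 0.46 and 1.93 ± 0.30, and their knockout rises 1.59 ± 0.22, 3.39 ± 0.46 and 1.67 ± 0.30. Without WT LPS array 4 the WT rises were 1.93, 3.14 and 2.22. They disagreed on knockout LPS array 2. That array was the highest of its group on probe set 1457770_at (9.11 against 6.58 to 7.76) and on the main one, but the lowest of its group on probe set 1438490_at (5.71 against 5.95 to 6.96). WT LPS array 4 was the lowest of the WT LPS arrays on all 4 probe sets.

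**Figure D2:**
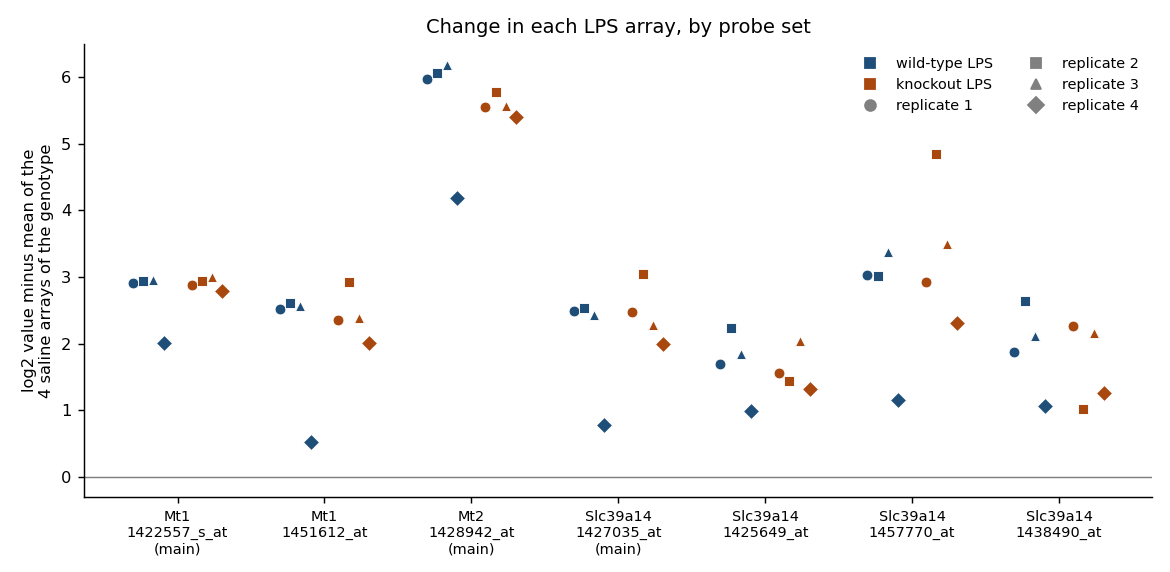
Log2 value of each LPS array less the mean of the 4 saline arrays of its genotype (y axis) for every probe set of Mt1, Mt2 and Slc39a14 (x axis), with colour for genotype and marker shape for replicate number. WT LPS replicate 4 lies below the other WT LPS arrays on all 7 probe sets, at 0.78 against 2.42 to 2.53 on the main Slc39a14 probe set.

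Slc30a1, the exporter ZnT1, was not called higher or lower after LPS in either genotype. The WT saline arrays read 8.52, 8.60, 8.58 and 8.46, and the WT LPS arrays 8.22, 8.59, 8.33 and 8.16. The knockout arrays read 8.78, 8.54, 8.60 and 8.68 after saline and 8.80, 8.87, 8.43 and 8.22 after LPS. In WT hearts 3 of 4 LPS arrays lay below all saline arrays and 1 within their range, and in knockout hearts 2 lay above and 2 below the range of the saline arrays. The log2 change was -0.21 ± 0.14 (adjusted p = 0.319, 95% interval -0.50 to 0.07) in WT and -0.07 ± 0.14 (adjusted p = 0.769, 95% interval -0.36 to 0.22) in knockout hearts. The second probe set of this gene, 1422786_at, gave 0.02 ± 0.15 and 0.37 ± 0.15 (adjusted p = 0.954 and 0.106 over all probe sets), so the 2 probe sets differed in sign and neither was called.

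The mean LPS effect over both genotypes pools 8 arrays against 8. It called the same 3 genes higher, where 15.4% of all genes were called higher. The log2 rises were 2.80 ± 0.11 for Mt1, 5.59 ± 0.23 for Mt2 and 2.25 ± 0.21 for Slc39a14, and 2.92, 5.82 and 2.46 without WT LPS array 4. Slc30a1 had -0.14 ± 0.10 (adjusted p = 0.288).

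The genotype comparisons set these genes with the A2AR absent against the same genes with it present, under saline and under endotoxin. They share arrays with the LPS comparisons. After saline, limma called 0 of the 6 genes, and 0.0055% of all genes were called. None of the 6 had an unadjusted p under 0.05 either. The knockout minus wild-type log2 differences ran from -0.12 ± 0.09 for Mt3 to 0.38 ± 0.32 for Mt2. After LPS, limma again called 0 of the 6, with 0 at an unadjusted p under 0.05 and 0.0055% of all genes called. The differences ran from -0.16 ± 0.09 for Mt3 to 0.43 ± 0.30 for Slc39a14. The knockout and wild-type arrays overlapped for all 6 genes after saline and after LPS, while 3.89% and 2.26% of all genes had arrays that did not overlap. Averaged over both treatments, 0 of the 6 were called (0.0055% of all genes), the lowest unadjusted p being 0.0572 for Mt3.

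The size of the LPS response did not pass as different between genotypes for any of the 6 genes. For this interaction limma called 0 of the 6 and 0% of all genes, with 0 of the 6 at an unadjusted p under 0.05. The knockout rise minus the wild-type rise was 0.20 ± 0.22 for Mt1 (95% interval -0.26 to 0.66), -0.02 ± 0.45 for Mt2 (-0.98 to 0.93) and 0.38 ± 0.42 for Slc39a14 (-0.51 to 1.28). These intervals leave room for differences of up to nearly 1 for Mt2 and over 1 for Slc39a14 on the log2 scale. Part of their width came from WT LPS array 4. Without it the differences were -0.03 ± 0.10, -0.50 ± 0.22 and -0.04 ± 0.23, none of them called (adjusted p = 0.975, 0.864 and 0.986). That of Mt2 was then larger in size than its standard error, while with all arrays it was smaller. The count at an unadjusted p under 0.05 covers only the fit with all arrays, and was not taken without WT LPS array 4. After LPS, the knockout minus wild-type difference of Slc39a14 went from 0.43 to 0.00, that of Mt2 from 0.36 to -0.11 and that of Mt1 from 0.14 to -0.09.

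**Figure D3:**
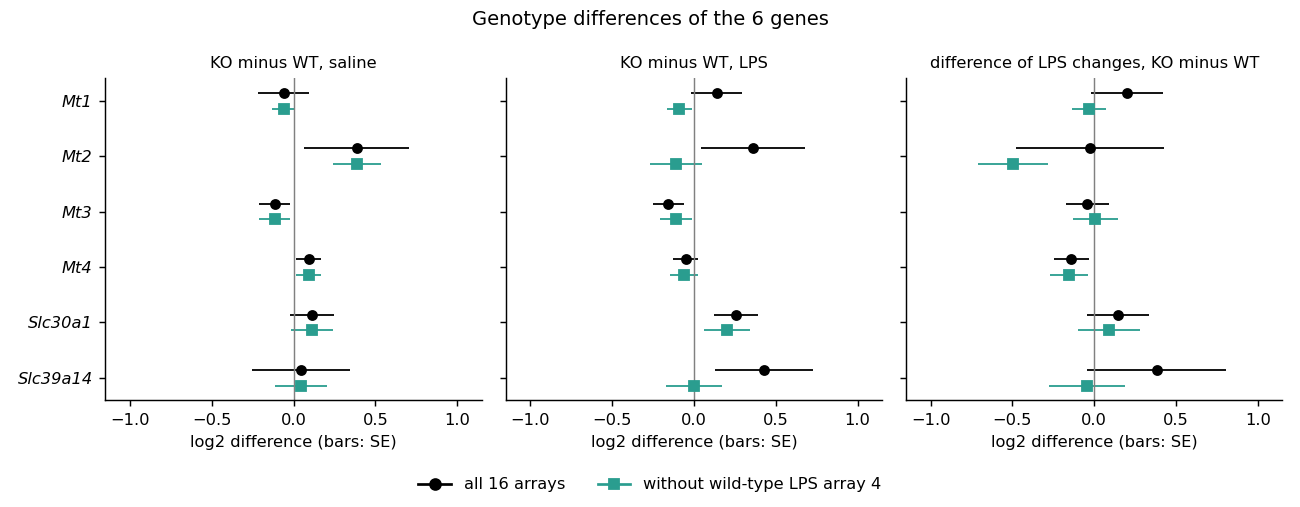
Log2 difference between genotypes (x axis, points with limma standard errors) for each of the 6 genes (y axis) after saline, after LPS and as the difference of the 2 LPS changes, with all 16 arrays in black and without WT LPS array 4 in green. The green points after LPS lie near 0 for Mt1, Mt2 and Slc39a14 (-0.09, -0.11 and 0.00), and the standard errors of these 3 genes are smaller. As the difference of the 2 LPS changes, the green Mt2 point lies at -0.50, against -0.02 in black.

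The other zinc importers are given beside Slc39a14, with no test of a difference from it. Of the 13 other members of the ZIP family, 2 rose in WT and 4 in knockout hearts, and 0 fell in either. Over all genes, 9.28% in WT and 11.4% in knockout hearts were called higher, and 11.6% and 14.7% lower. The family's counts were not tested against these shares. The median log2 change of these 13 genes was 0.16 and 0.22. Slc39a1 (ZIP1, at the plasma membrane) rose by 0.94 ± 0.14 and 1.13 ± 0.14, and Slc39a6 (ZIP6) by 1.21 ± 0.25 and 1.69 ± 0.25. In knockout hearts Slc39a7 (ZIP7, which releases zinc from the endoplasmic reticulum) rose by 0.62 ± 0.14 and Slc39a10 (ZIP10) by 0.78 ± 0.18. In WT hearts these 2 had log2 changes of 0.35 ± 0.14 (adjusted p = 0.0975) and 0.44 ± 0.18 (adjusted p = 0.104). WT LPS array 4 read 7.94 for Slc39a10, against 8.81 to 9.10 in the other WT LPS arrays. Without it the WT change of 0.69 was called, which raised the WT count to 3. Counts over all genes, in either direction, also went up without WT LPS array 4. They went from 3798 to 4902 in WT and from 4744 to 5527 in knockout hearts. Slc39a7 was called in WT hearts without WT LPS array 2 or without knockout LPS array 4. Averaging all probe sets of a gene ended the knockout call of Slc39a10. Slc39a9 had a log2 change of 0.28 in knockout hearts (adjusted p = 0.0563), called in several other settings, among them the fit without WT LPS array 4, where the knockout count was 5. The interaction of neither gene was called (adjusted p = 0.959 for each). Slc39a8, the closest relative of Slc39a14, had log2 changes of 0.40 ± 0.25 and 0.34 ± 0.25 (adjusted p = 0.308 and 0.356).

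Of the 9 other zinc exporters of the ZnT family, 1 fell and 0 rose in each genotype, a share near that of all genes called lower (11.6% in WT and 14.7% in knockout hearts). The one that fell was Slc30a9, a mitochondrial zinc transporter, by 0.45 ± 0.09 in WT and by 0.44 ± 0.09 in knockout hearts (adjusted p = 0.00130 and 0.00131). The other 8, among them the vesicular transporters Slc30a3 and Slc30a8, had log2 changes of -0.06 to 0.25 in WT and -0.08 to 0.37 in knockout hearts. The family's median change was 0.05 and 0.07.

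**Figure D4:**
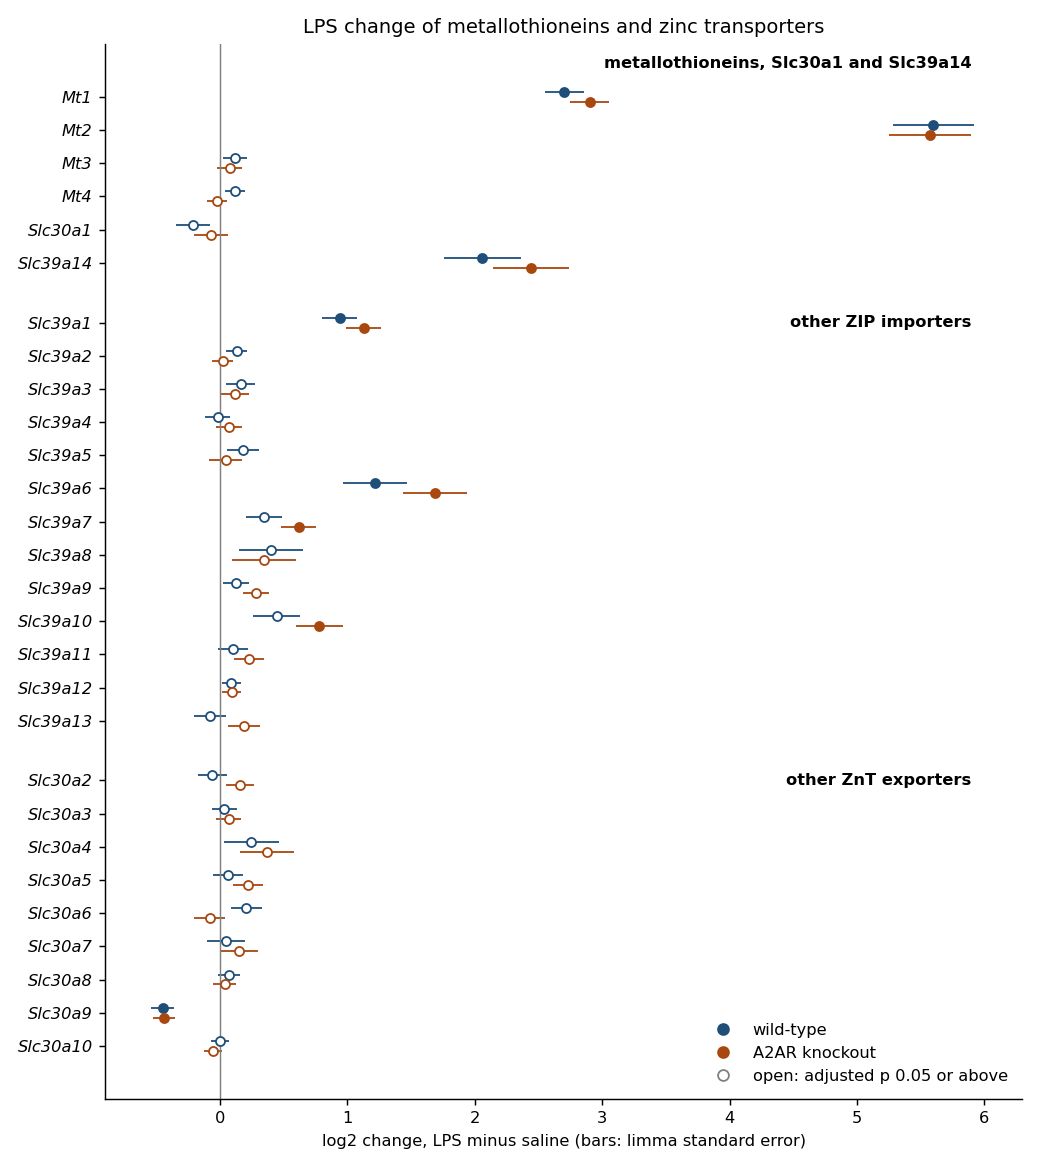
Log2 change of LPS against saline (x axis, points with limma standard errors) for the 6 genes, the 13 other ZIP importers and the 9 other ZnT exporters (y axis), in WT and knockout hearts, with open symbols where the adjusted p was 0.05 or above. Mt2, Mt1 and Slc39a14 lie at 2.06 to 5.60, while the other transporters lie between -0.45 and 1.69.

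The factors and signals known to act on metallothionein genes changed unequally. Of 6 transcription factor genes, 1 rose in each genotype, 2 fell in WT and 1 in knockout hearts. Over all genes, 9.28% in WT and 11.4% in knockout hearts rose, and 11.6% and 14.7% fell. Mtf1, the zinc sensor itself, had log2 changes of 0.10 ± 0.18 (adjusted p = 0.780) and -0.19 ± 0.18 (adjusted p = 0.489). Stat3 rose by 1.29 ± 0.13 and 1.41 ± 0.13, and Nr3c1, the glucocorticoid receptor, fell by 0.98 ± 0.10 and 1.24 ± 0.10. Usf2, which binds E-boxes, fell by 0.47 ± 0.12 in WT hearts (adjusted p = 0.00768). Without WT saline arrays 1 and 4 it fell by 0.44 ± 0.16 and the call was lost (adjusted p = 0.0917). In knockout hearts its log2 change was -0.32 ± 0.12 (adjusted p = 0.0534), called in several other settings. Among them were array weights and the fits without WT LPS array 3 or 4. Nfe2l2, another of the 6 factor genes, was not called with 1 probe set per gene. It was called in both genotypes when all its probe sets were averaged.

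Of 10 genes of the interleukin-6 family, interleukin-1 and TNF, 1 fell in each genotype (11.6% and 14.7% of all genes). In WT hearts 6 rose and in knockout hearts 5 (9.28% and 11.4% of all genes). Without WT saline arrays 1 and 4 the WT count was 3, as Il6ra, Il1b and Tnf lost their calls. Their log2 changes were then 0.84, 0.47 and 0.40, against 0.91, 0.54 and 0.39 with all arrays. Over all genes the WT count, in either direction, fell from 3798 to 2061 in that fit. Whether the lower number of arrays or the choice of arrays left out made the difference was not tested. The call of Il1b was also lost without WT saline array 1, 2 or 4 or WT LPS array 3 or 4. Il6 read 3.10 to 3.38 in the WT saline and 2.98 to 3.36 in the knockout saline arrays. After LPS it read 7.34, 9.13, 9.02 and 3.61 in WT and 8.84, 9.44, 8.11 and 5.63 in knockout arrays. The LPS arrays with the lowest Il6 in each genotype, array 4 of each group, were those with the lowest Mt1, Mt2 and Slc39a14 on the main probe sets. These arrays were also the lowest of their groups for many other genes raised by LPS in the other genotype. The shares were 65.3% of 632 genes for WT LPS array 4 and 49.4% of 549 for knockout LPS array 4. A link with Il6 was not tested. Il6 rose by 4.08 ± 0.93 and 4.85 ± 0.93, and by 5.30 in WT hearts without WT LPS array 4. Osmr, the oncostatin M receptor, rose by 2.39 ± 0.23 (2.64 without WT LPS array 4) and 2.78 ± 0.23, and Il6ra, a receptor chain for interleukin-6, by 0.91 ± 0.21 and 1.17 ± 0.21. Lifr, the receptor for leukemia inhibitory factor, fell by 1.08 ± 0.19 and 1.35 ± 0.19.

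Of 8 iron, manganese and copper transporter genes, 2 rose and 1 fell in each genotype. Of all genes, 9.28% in WT and 11.4% in knockout hearts rose, and 11.6% and 14.7% fell. Slc11a1, a metal transporter of phagocytes, rose by 1.47 ± 0.21 and 1.14 ± 0.21, and Slc31a2, a copper transporter of internal membranes, by 0.74 ± 0.16 and 0.61 ± 0.16. Tfrc, the transferrin receptor, fell by 1.92 ± 0.29 and 1.38 ± 0.29. Slc40a1, the iron exporter ferroportin, had log2 changes of 0.86 ± 0.49 and 0.78 ± 0.49 (adjusted p = 0.259 and 0.274). It was called in both genotypes with array weights, and in knockout hearts without knockout LPS array 2. Slc11a2, not called with 1 probe set per gene, was called in both genotypes when all its probe sets were averaged.

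The zinc-binding neutrophil proteins S100a8 and S100a9, which sequester zinc outside cells, rose in both genotypes, by 4.84 ± 0.17 and 4.86 ± 0.20 in WT and by 5.57 ± 0.17 and 4.99 ± 0.20 in knockout hearts. In WT LPS array 4 they read 8.49 and 8.31, against 8.64 to 9.34 and 8.70 to 9.43 in the other WT LPS arrays, so they were far nearer to the other arrays there than Il6 was. The mean of 8 measured neutrophil markers, which include S100a8 and S100a9, was 3.86 to 4.06 in the saline arrays, 5.34 to 6.14 in WT LPS and 5.94 to 6.35 in knockout LPS arrays, with 5 of 8 called higher in each genotype. The mean of 5 macrophage markers was 9.03 in WT LPS array 4, against 6.84 to 7.91 in the other WT LPS arrays, 6.65 to 7.62 in knockout LPS arrays and 8.11 to 8.35 in saline arrays, with 2 of 5 called lower in WT and 3 of 5 in knockout hearts. All 4 smooth muscle and pericyte markers were called lower in each genotype (median -1.82 and -1.54), as were all 4 atrial markers (-0.96 and -1.06), and 4 and 3 of the 7 cardiomyocyte markers. The mean of 6 hepatocyte markers was 4.27 to 4.65 over all arrays, with 0 of 6 called. Beside these marker counts, 9.28% of all genes in WT and 11.4% in knockout hearts were called higher, and 11.6% and 14.7% lower. The part of the marked cells in the changes of the 6 genes was not tested.

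Profiles most like those of the 6 genes were sought by the root mean square difference over the 16 arrays between log2 values less the WT saline mean. For Mt1 the closest were Mbd1 (0.24), Csf2rb (0.26) and Osmr (0.26), and for Slc39a14 they were Eif1a (0.21), Ampd3 (0.25) and Birc3 (0.26). For Mt2 the closest were Ifit1 (0.57), Ifit3 (0.59) and S100a9 (0.60). Set against each gene's own profile (root mean square 1.97 for Mt1, 4.12 for Mt2 and 1.67 for Slc39a14), these distances are of like size. For the 3 genes with no LPS call the profiles were nearly flat, and the closest were Ugt8a for Mt3 (0.084), Fezf2 for Mt4 (0.067) and Mbip for Slc30a1 (0.11). Their own profiles had a root mean square of only 0.14, 0.12 and 0.20. These distances are thus a larger share of the profile than for the 3 rising genes.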

How the data were processed

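The authors deposited log2 values per probe set, summarized with RMA (robust multi-array average) per the submitters' processing notes. No source used here names its version or probe mapping. Array medians were 4.62 to 4.67, and arrays have no read depth, so their number limits the precision. Of 45101 probe sets, 34945 carried 1 gene symbol in the platform annotation, 932 several, 9160 none, and 64 were controls. Symbols were updated through Entrez identifiers to RefSeq (34741 matched), and the probe set with the highest mean represented each gene. Limma 3.58.1 in R 4.3.3 was fitted to all 16 arrays (1 mean per group, intensity trend, 12 residual degrees of freedom), with Benjamini-Hochberg adjustment over 18193 genes and two-sided tests. Errors of changes are limma standard errors. The script was tested on simulated data. Named were the 6 genes, genes of fixed lists, and for each of the 6 the 3 genes of most similar profile. The genes and lists were chosen with earlier results of these data known. The neighbouring genes and the tests of other probe sets were added after the data were seen.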

Additional observations from a re-analysis of the deposited data

Results flagged for a closer look

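Each group of 4 arrays was examined for a value far from the other 3 (its gap to the nearest, as a share of the group's range, over Dixon's 95% critical value), over all 11 probe sets of the 6 genes. Of 44 groups, 6 held such a value, where chance gives about 1 in 20. Of these, 5 were low values of WT LPS array 4. They were 13.17 for Mt1 (the others 14.07 to 14.11) and 5.46 for its second probe set (7.45 to 7.54). Mt2 stood at 11.22 (13.00 to 13.22). Slc39a14 stood at 9.03 (10.67 to 10.78), and at 5.30 on probe set 1457770_at (7.17 to 7.52). The sixth was Mt3 in knockout LPS array 2, at 4.48 against 4.23 to 4.25, a level below the array median.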

How the results depend on the processing

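The counts of called genes among the 6 (3 for each LPS comparison, 0 for each genotype comparison and the interaction) were the same in each of up to 27 settings tried. They stayed at 3 to 3 and 0 to 0 when any 1 array was left out. The settings also covered probe set choice, variance model, filter, scaling, array weights and leaving out WT saline arrays 1 and 4. The filter on low values removed Mt3 and Mt4. No called change of the 6 genes lost its call or its sign, and 27 of 1102 values, none called in either setting, changed sign. Deviations of same-numbered arrays of different groups correlated at -0.27 to 0.33 (over 0.1 for 3 of 24 pairs), so the numbers were not taken as pairs. With the replicate number as a block, the WT rises were 2.70 ± 0.14 for Mt1, 5.60 ± 0.27 for Mt2 and 2.06 ± 0.25 for Slc39a14, and no call changed. Over all genes, the count called in WT hearts went from 3798 to 2061 without WT saline arrays 1 and 4, to 4902 without WT LPS array 4 and to 5432 with array weights. With the low-value filter 36.7% of the genes tested were called there. Counts of 1 gene called went to between 0 and 21 for the genotypes after saline, 0 and 3 after LPS, and 0 and 11 on average. The precision is limited by 4 arrays per group and by low signal for Mt3 and Mt4.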
